A study of Homo sapiens with 15 samples.

Results

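The genes described here encode the machinery of nonhomologous end joining, the pathway that ligates both ends of a broken chromosome without a template. The 9 genes share a known role and were chosen with earlier results of these data known, so counts of them called are not independent evidence. PRKDC, XRCC5, and XRCC6 encode the DNA-dependent protein kinase (DNA-PK), and XRCC4, LIG4, and NHEJ1 the ligation complex. DCLRE1C encodes the nuclease Artemis, and POLL and POLM encode gap-filling DNA polymerases. These 9 of 19480 genes named on the array are read by 13 of its 34127 probes, all of which passed the filter on low signal. PRKDC was among the genes that the study itself discussed from these tumors, so its direction in the MOAP-1 tumors is not independent evidence.

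RNA came from tumors formed in athymic nude mice by HCT116, a line of human colon carcinoma cells with wild type p53. Before injection the cells had been transfected with 1 of 5 constructs, and 3 tumors were measured for each. The constructs were an empty vector, Myc-tagged MOAP-1 (wild type), Myc-tagged MOAP-1 with the lysine-to-arginine change K264R, Myc-tagged MOAP-1 with the lysine-to-arginine change K278R, and HA-tagged RASSF1A (wild type). MOAP-1 carries a BH3-like motif and helps to activate Bax in apoptosis, and the tumor suppressor RASSF1A binds it. The methods describe the HCT116 transfection as transient, so the tumors grew from pools of cells and not from single clones. The labels give the tumors of a construct as replicates and do not tie them to animals, so p values measure the spread between these samples.

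In end joining, the Ku70/Ku80 dimer (XRCC6/XRCC5) slides onto a broken end and recruits the large kinase DNA-PKcs (PRKDC). Artemis opens hairpins and trims ends, the polymerases lambda and mu fill gaps, and XRCC4, DNA ligase IV, and XLF (NHEJ1) bridge and seal the break. Human cells hold unusually large amounts of Ku and DNA-PKcs, and the same genes join the antigen receptor segments of lymphocytes.

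Each value below is the log2 of a probe's background-subtracted signal minus the 75th percentile of its array, so 0 is the level of that percentile. A probe was called where the Benjamini-Hochberg adjusted *p* value of limma, over 30585 probes with signal, was below 0.05 and the change was at least 1.5-fold. Raw brightness, taken as each array's 75th percentile before scaling, differed between arrays. Vector tumors 1 to 3 had 629.9, 638.9, and 767.9, and MOAP-1 tumors 966.4, 798, and 1023. K264R tumors had 1221, 1171, and 1400, K278R tumors 930, 495.8, and 1152, and RASSF1A tumors 783.5, 612.7, and 816.2. All vector arrays were thus dimmer than all MOAP-1 and K264R arrays, and K278R tumor 3 had the brightest array of its construct. The part of raw brightness in the changes below was not tested. Slides and constructs overlap only in part: K264R filled 1 slide, K278R shared a slide with MOAP-1 tumor 2, MOAP-1 tumors 1 and 3 had another, RASSF1A tumor 3 shared the vector slide, and RASSF1A tumors 1 and 2 were on the last and were scanned on another day. For MOAP-1, K264R, and K278R against vector, slide and construct therefore cannot be told apart. K278R tumor 3 stood apart from K278R tumors 1 and 2 for several of these genes, and results that rest on it are given with and without it. It was singled out by those values, so results without it show its weight and are not separate tests.

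The labels were first set against the genes that the constructs carry. MOAP1 signal was 1.82-fold higher in the MOAP-1 tumors than in the vector tumors (log2 change 0.86, SE 0.14, limma adjusted p 0.000842), 1.47-fold higher in K264R (adjusted p 0.00939), and 1.67-fold higher in K278R (adjusted p 0.00504). RASSF1 did not differ in the RASSF1A tumors (log2 change -0.12, 95% interval -0.34 to 0.11, adjusted p 0.671), where its level was 1.57 against 1.68 with vector. Whether the probes read the transgenes was not tested. All 7 colon epithelial markers examined (EPCAM, KRT8, KRT18, KRT19, CDH1, CDX2, and VIL1) exceeded background clearly in each of the 15 tumors.

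Promoter sequence is shown for 3 of the genes, chosen because NHEJ1 was called higher in the MOAP-1 tumors while XRCC6 and POLM were not. They were also chosen because no other protein coding gene of the RefSeq table overlaps these windows. As given below, the NHEJ1 call was lost with another background model (normexp), and the direction of XRCC6 against vector is not settled. Each line gives the 250 bases before the most upstream RefSeq start in assembly GRCh38.p14, read on the strand of the gene from 5′ to 3′. Capitals mark GGGCGG (the GC box), CCAAT (the CCAAT box), and TTTNGCGC (a core of E2F sites) on either strand. The NHEJ1 window is chr2:219160816-219161065 (minus strand), the XRCC6 window is chr22:41621045-41621294 (plus strand), and the POLM window is chr7:44082531-44082780 (minus strand).
NHEJ1: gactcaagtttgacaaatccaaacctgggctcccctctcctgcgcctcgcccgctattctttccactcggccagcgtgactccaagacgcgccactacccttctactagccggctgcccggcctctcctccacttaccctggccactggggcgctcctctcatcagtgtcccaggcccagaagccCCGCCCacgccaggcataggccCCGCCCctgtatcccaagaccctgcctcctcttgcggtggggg
XRCC6: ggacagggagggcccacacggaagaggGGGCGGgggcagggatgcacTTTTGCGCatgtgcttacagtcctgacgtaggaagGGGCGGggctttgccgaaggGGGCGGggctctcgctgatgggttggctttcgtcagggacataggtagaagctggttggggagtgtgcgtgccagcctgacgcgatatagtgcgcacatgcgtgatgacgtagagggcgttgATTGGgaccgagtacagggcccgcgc
POLM: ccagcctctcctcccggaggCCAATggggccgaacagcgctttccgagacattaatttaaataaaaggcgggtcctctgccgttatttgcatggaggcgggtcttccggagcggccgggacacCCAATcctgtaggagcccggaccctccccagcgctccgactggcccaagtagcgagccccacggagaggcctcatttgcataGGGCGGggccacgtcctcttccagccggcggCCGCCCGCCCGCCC

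The NHEJ1 window held 2 GC boxes and no CCAAT box. The XRCC6 window held 3 GC boxes, 1 CCAAT box, and 1 TTTNGCGC, and the POLM window held 4 GC boxes, 3 of which overlap at its end, and 2 CCAAT boxes. Over 35116 RefSeq windows of the same length, 42.6% held a GC box, 32.0% a CCAAT box, and 1.5% TTTNGCGC. These are matches of letters and say nothing of which factor binds.

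Across the 5 constructs, 12 of the 13 probes passed the moderated F test at an adjusted p of 0.05, where 43.4% of all kept probes did. The first DCLRE1C probe missed it (adjusted p 0.0666). Against vector, 5 probes of 4 genes were called higher in the MOAP-1 tumors (9.92% of kept probes were), 5 of 4 genes in K264R (9.25%), and 3 of 2 genes in K278R (7.71%). None was called lower, against a background of 6.69%, 10.2%, and 3.2%. One of the MOAP-1 calls is a dim DCLRE1C probe that was kept because the tumors in which it is high lay above background. Over the 28155 probes well above background on all 15 arrays, 4 of 12 member probes were called higher in MOAP-1 (9.49% of those probes were), 5 in K264R (9.12%), and 3 in K278R (7%). With quantile normalization those backgrounds were even, with 2306 probes called higher and 2423 lower for MOAP-1 and 1368 and 1297 for K278R. In the RASSF1A tumors no probe of the 9 genes was called (0% of kept probes were), and 2 of 13 had an unadjusted p below 0.05, as did 12.1% of all kept probes. Without RASSF1A tumor 3, which lay on the vector slide, 4.6% of kept probes were called in RASSF1A and still no member probe. The median change of the 13 probes was 0.37 for MOAP-1, 0.29 for K264R, 0.47 for K278R, and -0.01 for RASSF1A, beside 0.02, -0.05, 0.06, and 0.02 over all kept probes.

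**Figure D1:**
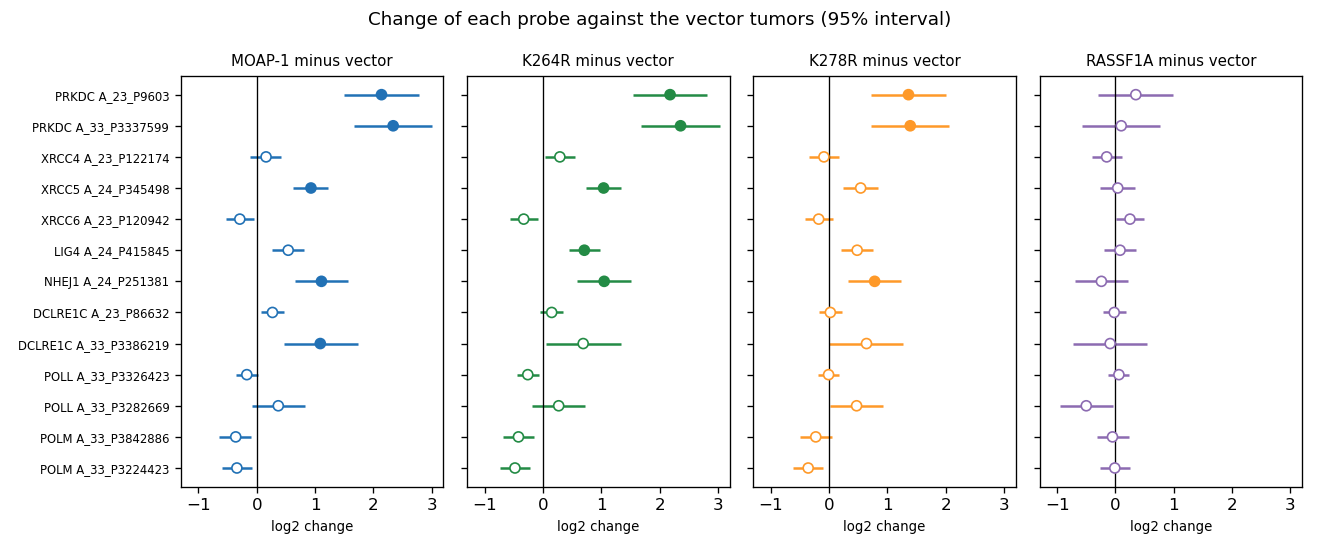
Log2 change against the vector tumors (x axis) of each of the 13 probes (rows) for MOAP-1, K264R, K278R, and RASSF1A, with 95% intervals from limma and 3 tumors a construct; filled points were called. Both PRKDC probes lie farthest to the right in the first 3 panels, from 1.36 to 2.36, and no point is filled for RASSF1A.

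PRKDC, the catalytic subunit of DNA-PK, showed the largest rise of the 9 genes. Its brighter probe (A_23_P9603) read -1.45, -1.65, and -1.89 in vector tumors 1 to 3. It read 0.57, 0.44, and 0.43 with MOAP-1, and 0.50, 0.58, and 0.47 with K264R. The K278R tumors read -0.66, -0.93, and 0.68, and the RASSF1A tumors -1.35, -1.44, and -1.14. No MOAP-1, K264R, or K278R tumor overlapped with the vector or RASSF1A tumors, and K278R tumor 3 lay above the MOAP-1 and K264R tumors while K278R tumors 1 and 2 lay between.

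PRKDC signal rose 4.41-fold in MOAP-1 (log2 change 2.14, SE 0.30, adjusted p 0.000338) and 4.53-fold in K264R (2.18, SE 0.30, adjusted p 0.000201). Only 0.186% and 0.0785% of kept probes rose as far in those comparisons. In K278R the rise was 2.56-fold (1.36, SE 0.30, adjusted p 0.00869). Without K278R tumor 3 it was 0.87 on the log2 scale (adjusted p 0.00833). In RASSF1A the difference was 0.35 (95% interval -0.29 to 0.99, adjusted p 0.647).

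The other PRKDC probe (A_33_P3337599), which is dimmer, gave the same order of constructs. Vector tumors read -2.90, -3.31, and -3.09, MOAP-1 tumors -0.60, -0.79, and -0.89, and K264R tumors -0.61, -0.70, and -0.90. K278R tumors read -2.02, -2.42, and -0.70, and RASSF1A tumors -3.12, -2.97, and -2.91. Its rise was 5.07-fold in MOAP-1 (adjusted p 0.000288), 5.13-fold in K264R (adjusted p 0.000173), and 2.61-fold in K278R (1.39, adjusted p 0.00971), where it was 0.88 without K278R tumor 3 (adjusted p 0.0109). On this probe too K278R tumor 3 sat with the MOAP-1 and K264R tumors. With another background model (normexp) this probe was not called against vector in any construct.

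**Figure D2:**
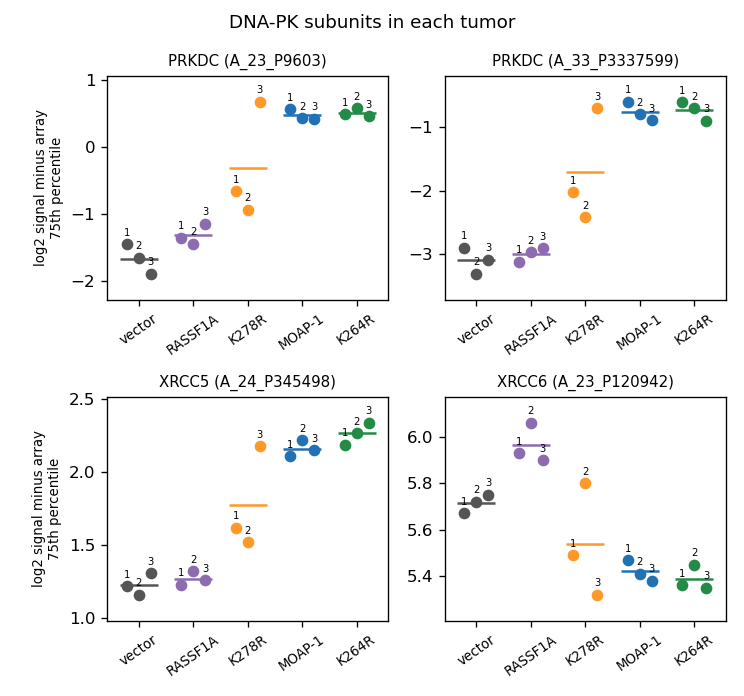
Log2 signal minus the array's 75th percentile (y axis) of the 4 DNA-PK probes in each tumor; numbers are tumor numbers, lines are means of 3 tumors, and each panel has its own y range. Vector and RASSF1A tumors lie lowest for both PRKDC probes and XRCC5, K278R tumor 3 lies with the MOAP-1 and K264R tumors, and the order is turned for XRCC6.

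The 5 constructs ordered by PRKDC level were vector (-1.66 ± 0.22), RASSF1A (-1.31 ± 0.15), K278R (-0.30 ± 0.86), MOAP-1 (0.48 ± 0.08), and K264R (0.52 ± 0.06; SD, n = 3). The neighbors vector and RASSF1A did not pass the test, nor did MOAP-1 and K264R (difference -0.04, 95% interval -0.68 to 0.60, adjusted p 0.978). K278R and RASSF1A differed by 1.01 (adjusted p 0.0218), and MOAP-1 lay 0.78 above K278R (95% interval 0.14 to 1.42), which did not pass (adjusted p 0.477). Without K278R tumor 3 these differences were 0.51 (adjusted p 0.0193, under 1.5-fold) and 1.27 (adjusted p 0.00535, called). Because that tumor was picked for its high values here, the differences had to move this way. None of the 13 probes was called between MOAP-1 and K264R (0.00327% of kept probes were), between MOAP-1 and K278R (0%), or between K264R and K278R (0.575%). At an unadjusted p below 0.05 these counts were 0, 4, and 5 (10.9%, 9.22%, and 27.9% of kept probes). Without K278R tumor 3, both PRKDC probes and XRCC5 were called higher in MOAP-1 than in K278R (0.67% of kept probes were called) and in K264R than in K278R (5.46%). No other tumor left out gave a call of these genes in either comparison. Between K264R and K278R, array weights called 2 member probes higher (7.15% of kept probes were called) and slide as a random block 1 (3.25%). Normexp without spots of extreme local background called 2 higher and 1 lower there (4.25%).

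The spread of PRKDC within K278R was itself unusual. Its SD of 0.86 was reached by only 1.26% of kept probes in those tumors, where the median SD was 0.182. MOAP-1 tumor 2 was on the same slide as the 3 K278R tumors, and there it lay 0.75 above their mean for the brighter PRKDC probe and 0.93 for the other. With slide as a fixed block these values had adjusted p values of 0.862 and 0.854.

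XRCC5, which encodes Ku80, moved with PRKDC. Vector tumors read 1.22, 1.16, and 1.31, MOAP-1 tumors 2.11, 2.22, and 2.15, and K264R tumors 2.19, 2.27, and 2.34. K278R tumors read 1.62, 1.52, and 2.18, and RASSF1A tumors 1.23, 1.32, and 1.26. The RASSF1A and vector tumors overlapped, the 3 MOAP-1 constructs lay above both, and K278R tumor 3 again lay with MOAP-1.

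XRCC5 rose 1.90-fold in MOAP-1 (log2 change 0.93, SE 0.14, adjusted p 0.000503) and 2.05-fold in K264R (1.04, adjusted p 0.000187). In K278R it was 1.46-fold higher (0.54, adjusted p 0.0171), just short of the fold threshold, and 0.34 higher without K278R tumor 3 (adjusted p 0.0357). With quantile normalization it was called there (0.62, adjusted p 0.0168). The difference in RASSF1A was 0.04 (95% interval -0.26 to 0.34).

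XRCC6, which encodes Ku70, the partner of Ku80, did not rise. It is the brightest of the 13 probes, with vector tumors at 5.67, 5.72, and 5.75, MOAP-1 tumors at 5.47, 5.41, and 5.38, and K264R tumors at 5.36, 5.45, and 5.35. K278R tumors read 5.49, 5.80, and 5.32, and RASSF1A tumors 5.93, 6.06, and 5.90. RASSF1A tumors lay above all others, and the MOAP-1 and K264R tumors lay below the vector tumors.

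The XRCC6 difference from vector was -0.29 in MOAP-1 (adjusted p 0.0614), -0.33 in K264R (adjusted p 0.0352, under 1.5-fold), -0.18 in K278R (adjusted p 0.262), and 0.25 in RASSF1A (adjusted p 0.396). With quantile normalization these were -0.02, 0.03, 0.01, and 0.28, so its direction against vector in the 3 MOAP-1 constructs is not settled. Against RASSF1A it was lower by 1.46-fold in MOAP-1, 1.49-fold in K264R, and 1.35-fold in K278R (adjusted p 0.00198, 0.00117, and 0.0108), all under the fold threshold.

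Both Ku genes were also compared within each array, a comparison chosen after their values were seen. XRCC5 minus XRCC6 was -4.45, -4.56, and -4.44 with vector and -3.36, -3.19, and -3.23 with MOAP-1. It was -3.17, -3.18, and -3.01 in K264R, -3.86, -4.28, and -3.13 in K278R, and -4.70, -4.75, and -4.64 in RASSF1A. Because probes differ in brightness, only the change of this difference between constructs can be read.

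The difference between the Ku probes moved by 1.22 in MOAP-1 (SE 0.20, limma adjusted p 0.000927), by 1.36 in K264R (adjusted p 0.000334), and by 0.72 in K278R (adjusted p 0.0262), toward XRCC5. It moved by -0.21 in RASSF1A (adjusted p 0.694). Under 23 alternative settings the MOAP-1 value stayed between 1.03 and 1.27, and the K264R value between 1.10 and 1.45. The K278R value lay between 0.41 and 0.98. It leaned on K278R tumor 3, which read -3.13 against -3.86 and -4.28 in K278R tumors 1 and 2. Without K278R tumor 3 the K278R value lay near 0.41, the low end of its range.

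Among the ligation genes, NHEJ1 was called higher in MOAP-1, K264R, and K278R and LIG4 in K264R, calls that were lost with another background model (normexp), and XRCC4 was called in none. NHEJ1 (XLF, which aligns ends with XRCC4) read -4.03, -4.35, and -3.71 with vector and -2.70, -3.06, and -3.00 with MOAP-1. It read -2.98, -2.90, and -3.05 with K264R, -3.39, -3.48, and -2.87 with K278R, and -4.15, -4.70, and -3.96 with RASSF1A. The 3 MOAP-1 constructs lay above the vector and RASSF1A tumors without overlap.

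NHEJ1 rose 2.16-fold in MOAP-1 (log2 change 1.11, SE 0.21, adjusted p 0.00214), 2.08-fold in K264R (adjusted p 0.00225), and 1.72-fold in K278R (0.78, adjusted p 0.0224). Without K278R tumor 3 the last was 0.59 (adjusted p 0.0876), without vector tumor 2 it was 0.62 (adjusted p 0.104), and without vector tumor 1 it was 0.78 (adjusted p 0.0534). The probe is dim, and with normexp the 3 changes were -0.54, -0.05, and -0.68, none of them called. Normexp moved the median of all kept probes to -0.53, -0.31, and -0.46, and relative to that median NHEJ1 lay at -0.01, 0.25, and -0.21.

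LIG4, the ligase that closes the break, lay close to -4.5 with vector (-4.58, -4.48, and -4.58) and RASSF1A (-4.37, -4.57, and -4.44). It read -3.95, -4.06, and -4.01 with MOAP-1, -3.58, -4.08, and -3.85 with K264R, and -4.11, -4.21, and -3.87 with K278R. LIG4 rose 1.64-fold in K264R (0.71, SE 0.12, adjusted p 0.000932), and without K264R tumor 1 the value was 0.58, under the fold threshold. In MOAP-1 it was 1.45-fold higher (0.54, adjusted p 0.0063) and in K278R 1.40-fold higher (0.48, adjusted p 0.0184). With normexp LIG4 in K264R lay at -0.37, and at -0.07 once the shift of the kept probes was subtracted.

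XRCC4, the scaffold that LIG4 binds, is printed as 10 spots on every array, and these agreed to an SD of 0.03 to 0.09 within an array (9 spots were used in RASSF1A tumor 3). Vector tumors read -1.57, -1.23, and -1.61, and MOAP-1 tumors -1.32, -1.27, and -1.33. K264R tumors read -1.08, -1.19, and -1.26, K278R tumors -1.68, -1.68, and -1.31, and RASSF1A tumors -1.57, -1.62, and -1.66. Vector tumor 2 was the highest of the vector tumors and fell among the MOAP-1 and K264R tumors. The change was 0.16 in MOAP-1 (95% interval -0.11 to 0.42, adjusted p 0.344), 0.29 in K264R (adjusted p 0.0821), and -0.09 in K278R (adjusted p 0.63).

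**Figure D3:**
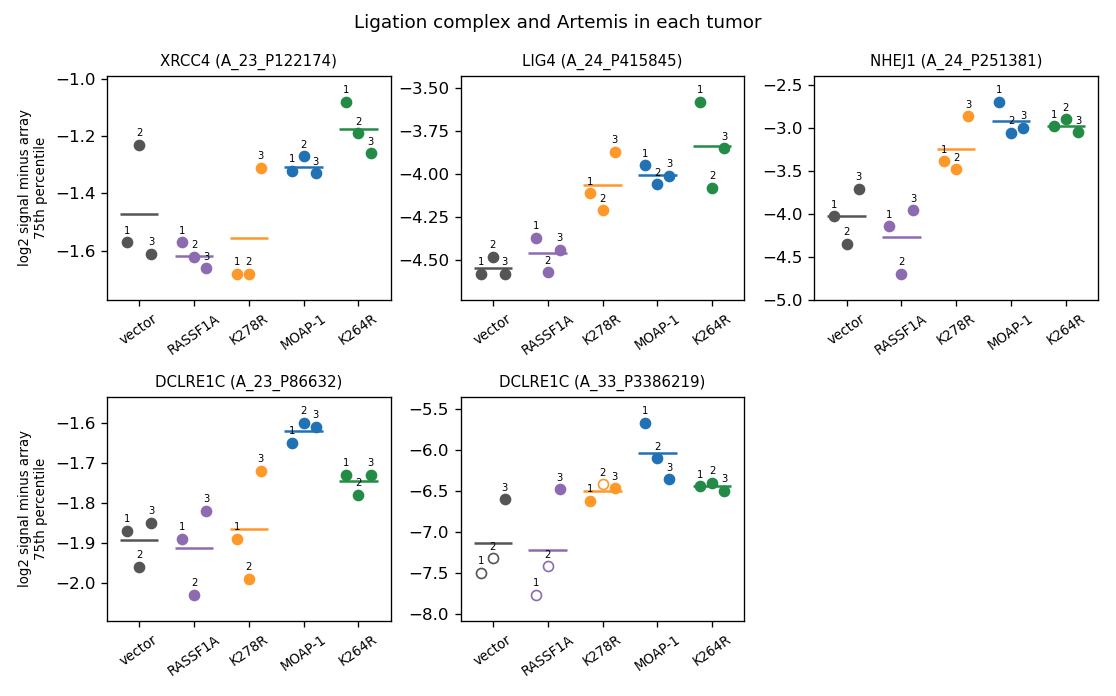
Log2 signal minus the array's 75th percentile (y axis) of the probes of XRCC4, LIG4, NHEJ1, and DCLRE1C in each tumor; lines are means of 3 tumors, open points were not well above background, and each panel has its own y range. NHEJ1 and LIG4 tumors with a MOAP-1 construct lie above the vector tumors, vector tumor 2 lies high for XRCC4, and 5 points of the second DCLRE1C probe are open.

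The end-processing gene DCLRE1C (Artemis) had probes of very different brightness. The brighter one (A_23_P86632) read -1.87, -1.96, and -1.85 with vector and -1.65, -1.60, and -1.61 with MOAP-1, a 1.21-fold difference (0.27, adjusted p 0.0375) under the fold threshold. K264R lay 0.15 above vector (adjusted p 0.228) and K278R 0.02 above (adjusted p 0.87).

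The dim DCLRE1C probe (A_33_P3386219) was well above background on 10 of 15 arrays, on 1 of 3 for vector, 1 of 3 for RASSF1A, and 2 of 3 for K278R. Vector tumors read -7.50, -7.32, and -6.60, and MOAP-1 tumors -5.67, -6.10, and -6.36. It was kept because its tumors lay above background with MOAP-1 and K264R, so its call in MOAP-1 (adjusted p 0.0139) carries no measured fold. Without MOAP-1 tumor 1, vector tumor 1, or vector tumor 2 the adjusted p was 0.055, 0.0572, and 0.0555, and with normexp the value was -1.49 (-0.96 relative to the median of all kept probes). No direction is given for DCLRE1C.

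Of the polymerase genes, POLM did not rise with the kinase, and the probes of POLL disagreed. POLM (polymerase mu, which can join ends with little pairing) was lower on both probes without reaching 1.5-fold. Probe A_33_P3842886 read 0.37, 0.50, and 0.56 with vector and 0.17, -0.03, and 0.21 with MOAP-1. The difference from vector was -0.36 in MOAP-1 (adjusted p 0.0457), -0.42 in K264R (adjusted p 0.021), and -0.23 in K278R (adjusted p 0.212).

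Probe A_33_P3224423 of POLM read 0.10, 0.03, and 0.08 with vector and -0.28, -0.14, and -0.39 with MOAP-1. Its difference was -0.34 in MOAP-1 (adjusted p 0.0466), -0.48 in K264R (adjusted p 0.00777), and -0.36 in K278R (adjusted p 0.0509). In RASSF1A the values of the probes were -0.05 and -0.01. The POLM probes thus gave like values in all 4 comparisons.

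The probes of POLL (polymerase lambda) did not. The brighter one (A_33_P3326423) read 1.24, 1.12, and 1.06 with vector and 0.96, 0.99, and 0.98 with MOAP-1, a difference of -0.17 (adjusted p 0.155), and lay 0.26 below vector in K264R (log2 change -0.26, adjusted p 0.0326). The dimmer one (A_33_P3282669) read -3.81, -4.03, and -3.48 with vector and -3.37, -3.35, and -3.47 with MOAP-1, a difference of 0.37 (adjusted p 0.195). RASSF1A tumors read -4.84, -4.15, and -3.82 on the dimmer probe, the lowest of the constructs. No direction is given for POLL.

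The RASSF1A tumors served as a second comparison. Against them, 6 probes of 5 genes were called higher in MOAP-1 (13% of kept probes were), 7 of 6 genes in K264R (12%), and 4 of 3 genes in K278R (11.5%). The MOAP-1 and K264R counts include the dim DCLRE1C probe, and over the probes well above background on all 15 arrays they were 5 and 6 of 12 member probes (13% and 12.2% of those probes), with 4 in K278R (11.4%). The brighter PRKDC probe lay 1.79 higher in MOAP-1 (adjusted p 0.000513), 1.83 in K264R (adjusted p 0.000393), and 1.01 in K278R. XRCC5 lay 0.89, 1.00, and 0.50 higher, and NHEJ1 1.35, 1.30, and 1.02 higher. The dimmer POLL probe was called in all 3, at 0.87, 0.76, and 0.97. With scan day as a block, which leaves RASSF1A tumor 3 to stand for the construct, the probes called higher were 4 in MOAP-1 (5.69% of kept probes), 5 in K264R (5.49%), and 0 in K278R (2.24%). The brighter PRKDC probe then lay 1.62 higher in MOAP-1 (adjusted p 0.0289), 1.66 in K264R (adjusted p 0.0218), and 0.84 in K278R (adjusted p 0.286), and the dimmer POLL probe was called in none. These comparisons share the MOAP-1, K264R, and K278R tumors with those against vector.

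The array genes most like PRKDC over the 15 tumors were CDK2 (Pearson r 0.987), PPP2R2A (0.982), SMC3 (0.982), RHOA (0.982), and EIF4G2 (0.981). The second PRKDC probe correlated at 0.99, XRCC5 at 0.98 (19th of the kept probes), LIG4 at 0.91, and NHEJ1 at 0.90. XRCC6 stood at -0.85 and the POLM probes at -0.88 and -0.73. These values describe 15 tumors that share the 5 constructs and the slides, and have no p value.

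In the genome, PRKDC shares its start region with MCM4, which encodes a subunit of the replicative helicase and is read in the opposite direction. MCM4 rose 1.52-fold in K264R (0.60, adjusted p 0.00289). It was 1.45-fold higher in MOAP-1 (0.54, adjusted p 0.0067) and 1.34-fold in K278R (0.43, adjusted p 0.0318), both under the fold threshold, and differed by -0.09 in RASSF1A. Of the other neighbors on the chromosome, only CEBPD, a transcription factor gene, moved the other way. CEBPD fell by 1.30 on the log2 scale in MOAP-1, by 1.51 in K264R, and by 1.10 in K278R (adjusted p 0.000392, 0.000129, and 0.00312). SPIDR, a scaffold of homologous recombination, lay 0.46, 0.29, and 0.28 above vector and UBE2V2, a ubiquitin-conjugating variant, 0.34, 0.37, and 0.12, none of them called.

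Genes that overlap the promoter windows of other members were added after the members' values had been seen. TMEM167A beside XRCC4 lay 0.22 above vector in MOAP-1 (adjusted p 0.208), MEIG1 beside DCLRE1C at -0.19 (adjusted p 0.446), and ABHD13 beside LIG4 at 0.03 (adjusted p 0.871). DPCD beside POLL was called higher on one probe in MOAP-1 (1.19, adjusted p 0.00555) and lay at -0.27 on the other (adjusted p 0.0504).

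Around the core machinery lies a wider set of accessory genes that trim ends, act as scaffolds, or signal the break, of which 22 of 25 had signal. A gene was counted where any of its probes was called, which over all 18013 named genes with signal held for 13.3% (higher) and 6.88% (lower) in MOAP-1, 13.2% and 10.8% in K264R, and 9.89% and 3.46% in K278R. In MOAP-1, 4 accessory genes were called higher and 1 lower, in K264R 6 and 2, in K278R 5 and 1 with SETMAR counted in both, and in RASSF1A 0. RNF8, a ubiquitin ligase at breaks, rose 2.50-fold in MOAP-1, 2.46-fold in K264R, and 2.02-fold in K278R (adjusted p 0.000965, 0.000768, and 0.00878). The dimmest of the 3 probes of APTX (aprataxin, which clears adenylated ends) was called at 1.85-fold, 1.72-fold, and 1.71-fold in the same order, while its brighter probes read -0.08, 0.25, and -0.16 and 0.16, 0.14, and 0.20 on the log2 scale, none of them called. RIF1, which holds back end resection, rose 1.52-fold in K264R (adjusted p 0.00539). SETMAR, a histone methyltransferase with a transposase domain, fell by 1.32, 1.46, and 1.21 on one probe. Its other, dimmer probe lay 0.69, 0.59, and 0.79 above vector in the same order and was called only in K278R, so the SETMAR probes disagreed. The median change of this list was 0.17, 0.20, 0.12, and 0.09 for MOAP-1, K264R, K278R, and RASSF1A.

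The alternative pathway, which joins ends through short homologies, had signal for all 10 genes listed. There, 2 were called higher in MOAP-1, 3 in K264R, and 2 in K278R (13.3%, 13.2%, and 9.89% of all named genes were), with 0 in RASSF1A and none lower. The flap nuclease gene FEN1 rose 1.98-fold, 2.07-fold, and 1.80-fold. One probe of PARP1, the sensor that recruits its ligases, was called at 2.34-fold, 2.31-fold, and 1.78-fold (adjusted p 0.000257, 0.000168, and 0.00483), while its brighter probe gave log2 changes of 0.42, 0.08, and 0.40 (adjusted p 0.106, 0.78, and 0.139). The dim probe of ERCC4, a nuclease subunit, was called at 1.93-fold in K264R (adjusted p 0.00145), and its brighter probe lay at 0.17 there (adjusted p 0.286). The list's median change was 0.35, 0.17, 0.29, and -0.01. PARP1 was also discussed by the study from these tumors.

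Of the kinases related to DNA-PKcs and the complex that assembles them, all 8 had signal. In MOAP-1, 3 were called higher (ATM 2.22-fold, TRRAP 1.69-fold, and MTOR 1.53-fold), and in K278R 3, of which ATM was 2.20-fold higher. In K264R 4 were called higher and 1 lower, with SMG1 in both because its probes disagreed, and in RASSF1A 0 were called. Of all named genes, 13.3%, 13.2%, and 9.89% were called higher in MOAP-1, K264R, and K278R, and 10.8% lower in K264R. The ATM call came from a dim probe, and the brighter ATM probe read -0.32 in MOAP-1 (adjusted p 0.0246), -0.35 in K264R (adjusted p 0.0121), and -0.10 in K278R (adjusted p 0.47). ATM, the break-sensing kinase, was named in the study's own discussion as well. PRKDC changed by more than any of these in MOAP-1, 2.14 against 1.15 for the dim ATM probe on the log2 scale, although that difference was not tested.

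Markers of proliferation, of stroma, and of colon epithelium differed between the constructs as well, and their part in the results above was not tested. In these bulk tumors, fewer cells of a type and less RNA per cell cannot be told apart. Of 18 proliferation genes, 7 were called higher in MOAP-1, 9 in K264R, and 5 in K278R, beside 13.3%, 13.2%, and 9.89% of all named genes, and 0 in RASSF1A. RRM2 (nucleotide supply) rose 3.75-fold in MOAP-1, TOP2A (topoisomerase II) 3.58-fold, the brighter probe of PCNA (the polymerase clamp) 1.53-fold, and CCNA2 (cyclin A) 1.65-fold. The summed signal of the 18 genes, in multiples of the array's 75th percentile, was 67.4 to 74.1 with vector, 76.4 to 81.6 with MOAP-1, 79.6 to 87.9 with K264R, 71.5 to 73.6 with K278R, and 80.8 to 89.2 with RASSF1A. The ranges of RASSF1A, K264R, and MOAP-1 overlapped. The sum of the 7 colon epithelial genes was 268 to 308 with vector, 220 to 253 with MOAP-1, and 200 to 226 with K264R. It was 181 to 259 with K278R and 234 to 264 with RASSF1A, so the vector range lay above all others.

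Of 8 fibroblast genes, 7 had signal, and their summed signal was 2.04 to 7.76 with vector, 5.70 to 43.8 with MOAP-1, 4.65 to 19.4 with K264R, 10.9 to 41.5 with K278R, and 8.05 to 11.4 with RASSF1A. COL1A1, a collagen gene, read 1.79, 1.96, and 0.57 with vector and 1.99, 4.74, and 4.30 with MOAP-1 (adjusted p 0.0406). One DCN probe was also called in MOAP-1 (adjusted p 0.011, with overlapping tumors) and the other was not (adjusted p 0.204), and PDGFRB was called in K278R. Endothelial (2.10 to 3.68), leukocyte (5.74 to 8.38), and erythroid (8.51 to 17.4) sums varied less. A probe of PTPRC, a leukocyte gene, was called higher in MOAP-1 (0.72) and another lay at -0.38, and 1 of the KRT8 probes was called higher (1.07) with the other at -0.21. Stroma in these tumors comes from the mouse host, and how far mouse RNA binds these human probes was not tested.

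The dependence on background correction followed the brightness of the probes. In MOAP-1, the brighter PRKDC probe changed by 2.14 with the scanner software's background, 2.09 with quantile normalization, 1.86 with normexp without spots of extreme local background, and 1.49 with normexp (adjusted p 0.0348). XRCC5 gave 0.93, 1.03, 0.92, and 1.03. LIG4 gave 0.54 in the first and -1.13 in the last (adjusted p 0.205). Under normexp all kept probes together had a median change of -0.53, and relative to it PRKDC rose by 2.02 and XRCC5 by 1.56.

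**Figure D4:**
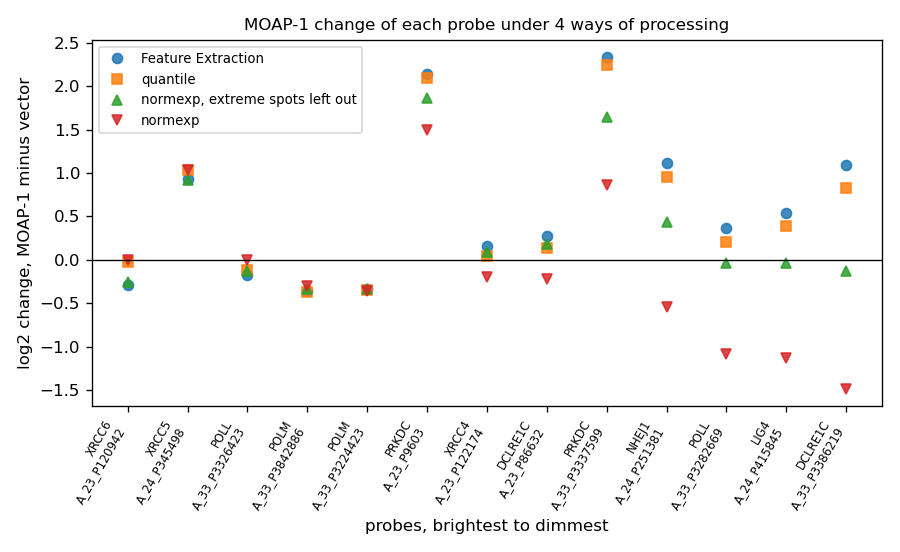
Log2 change in MOAP-1 against vector (y axis) of the 13 probes, ordered from brightest to dimmest by mean level (x axis), under the scanner software's background, quantile normalization, and 2 versions of the normexp background model. The settings lie close together for the bright probes and spread downward for the dim probes, where normexp, with a median of -0.53 over all kept probes, puts NHEJ1, LIG4, the dimmer POLL probe, and the dimmer DCLRE1C probe below 0.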

How the data were processed

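The files deposited for the 15 tumors are Agilent Feature Extraction outputs of one-color human whole genome arrays, which give a processed intensity per spot after background subtraction and no scaling between arrays. The labels name version 9.1 of that software and the file headers 10.5.1.1. A table of log2 values, also deposited by the authors, was scaled to the 75th percentile and centered per probe in GeneSpring. Against the intensities, 8 of its columns followed the array of the same label and 7 another array of the same construct, so it served as an alternative.

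Here, control spots and outlier spots were left out, log2 intensities were set to the 75th percentile of each array, and spots of 1 probe were averaged. Of 34127 probes, 25419 were named through the RefSeq accessions of the array (74.5%), and 30585 had signal well above background in every tumor of some construct and were kept. The 15 arrays were fitted with limma 3.58.1 (R 4.3.3), on the construct alone (10 residual degrees of freedom), for all 10 pairs of constructs. The fit was tested on simulated data. The number of arrays limits the precision. Normexp used an offset of 50. No spot was saturated. The replicate numbers did not pair the tumors.

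The 9 genes and the gene lists were chosen with earlier results of these data known. The lists were the 25 accessory, 10 alternative, 8 kinase, 18 proliferation, and the marker genes. Named genes are all member probes, up to 4 called genes of each list, the 4 neighbors of PRKDC, and the 5 genes most like it. Alternatives were quantile normalization, 2 normexp settings, 2 filters, the authors' table, array weights, a block (slide, scan day, or replicate number), a fit restricted to the arrays compared, the methods' t-test, and leaving out each tumor. The fixed slide block could be estimated only for RASSF1A minus vector and MOAP-1 minus K278R. Protein and probe sequences were not used here.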

Additional observations from a re-analysis of the deposited data

Results flagged for a closer look

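The change of PRKDC against vector differed between constructs. Vector cancels when such changes are subtracted, so the values are those of the comparisons with RASSF1A given above and are no further test. The change was larger by 1.79 on the log2 scale in MOAP-1 than in RASSF1A, by 1.83 in K264R than in RASSF1A, and by 1.01 in K278R than in RASSF1A. RASSF1A tumors 1 and 2 were hybridized on a slide of their own and scanned on another day. Without K278R tumor 3 the last difference was 0.51, under the fold threshold. With scan day as a block the differences were 1.62, 1.66, and 0.84, and the last did not pass the test (adjusted p 0.286).

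The K264R and K278R tumors are not part of the comparison that the study described. Of the 13 probes, 5 were called higher in K264R than in vector and 3 in K278R (9.25% and 7.71% of kept probes were).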

How the results depend on the processing

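Of the comparisons summarized, the rise of the brighter PRKDC probe in MOAP-1 and K264R was called under every alternative that could estimate it. The dimmer PRKDC probe was not called with normexp in MOAP-1, K264R, or K278R. With normexp, the probes past the F test fell from 12 to 3, those called in MOAP-1 from 5 to 2, in K264R from 5 to 2, and in K278R from 3 to 0 (1.71%, 2.99%, and 0.00327% of kept probes were called, in either direction). PRKDC was then 0.77 in K278R (adjusted p 0.279) and -0.13 in RASSF1A. Without spots of extreme local background (21 spots on 3 arrays) normexp gave 7 probes in the F test. It called 3 higher in MOAP-1 (3.88% of kept probes were), 3 in K264R (4.18%), and 2 in K278R (2.16%). It also called 1 member probe lower in K264R, where 21.7% of kept probes were called lower. Scan day as a block gave 7 in the F test. Without RASSF1A tumor 3, 261 of all kept probes were called higher and 1147 lower in RASSF1A. For K278R, a fit of only the arrays compared called 0 probes (3.83% of kept probes), and the methods' t-test 1 unadjusted and 0 after Benjamini-Hochberg (0%), with PRKDC at 1.36 and adjusted p values of 0.0757 and 0.208 (unadjusted p 0.057). The cause was not tested.

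Among single probes, normexp, which moved the median of all kept probes to -0.53, -0.31, and -0.46 in MOAP-1, K264R, and K278R, gave values below 0 for LIG4 in K264R (-0.37), NHEJ1 in MOAP-1, K264R, and K278R (-0.54, -0.05, and -0.68), and the dim DCLRE1C probe in MOAP-1 (-1.49). Relative to that median, NHEJ1 in K264R stayed above 0 (0.25). Without extreme spots the values were below 0 for LIG4 in K264R (-0.17) and that DCLRE1C probe in MOAP-1 (-0.13) and K264R (-0.67). Over all kept probes, normexp called 257 higher and 265 lower in MOAP-1 and 263 and 651 in K264R, and without extreme spots 1186 and 1445 in MOAP-1, 1278 and 6632 in K264R, and 660 and 666 in K278R.

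Leaving out 1 tumor at a time gave 8 to 13 probes in the F test, 4 to 5 called in MOAP-1, 4 to 6 in K264R, 2 to 4 in K278R, and 0 in RASSF1A. The share of kept probes called higher moved as well, from 7.17% to 10.8% in MOAP-1, 7.16% to 10.5% in K264R, and 3.54% to 8.67% in K278R. These shares were lowest without vector tumor 2 and highest without vector tumor 3. In RASSF1A 0% to 4.6% were called in either direction. PRKDC then ranged from 2.03 to 2.25, 2.07 to 2.29, 0.87 to 1.67, and 0.24 to 0.46. The PRKDC value in K278R was lowest without K278R tumor 3 and highest without K278R tumor 2.

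Deviations of same-numbered tumors from their construct means correlated at -0.25 to 0.37 over 30 pairs (median 0.11, against -0.04 for other pairs), so the numbers were not taken to pair the tumors. With the replicate number as a block, PRKDC was 1.36 in K278R (adjusted p 0.0105), 9 probes passed the F test, and the counts called were 5, 5, 3, and 0. Of all kept probes, 10.4%, 9.39%, and 8.41% were then called higher in MOAP-1, K264R, and K278R, and 0% in RASSF1A.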
